A study of Mus musculus with 24 samples.

Results

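The 24 hippocampal libraries of this series were ranked by their level of Fos, and the 8 with the most Fos transcripts were set against the 8 with the fewest. Fos CPM (the reads of a gene per 1000000 counted reads of its library) chose both sides, so no p-value is given for any difference between them: sizes and ranges describe these 16 of 24 libraries. RNA came from the hippocampus of C57BL/6 mice that were wild type (WT) or carried a knockout of the interleukin-1 receptor 1 (KO), in neurons per the title of the series, and that had gone through social defeat by paired fighting (stress) or had not (control). Stressed KO mice gave 5 libraries, KO controls 6, stressed WT mice 6 and WT controls 7. The labels name neither the driver of the knockout nor the age of the mice, nor the time between the last fight and tissue collection. Whether the libraries are from different mice is not stated either, so all errors measure the spread between these samples, which may be partly technical.

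The high Fos side held 2 KO stress, 2 KO control, 2 WT stress and 2 WT control libraries. The low Fos side held 2 KO stress, 2 KO control, 1 WT stress and 3 WT control libraries, and the other 8 libraries lay between the sides. Libraries also differed by replicate number within a group. In the 11 low-numbered libraries (KO stress 1 and 2, KO control 1 to 4, WT stress 1 and 2, WT control 1 to 3), levels of Rn45s, a ribosomal RNA precursor, ran from 24238 to 50453 CPM, against 4107 to 8786 CPM in the 13 high-numbered ones. The labels give no batch, and this split is called the library class here. All 8 high Fos libraries were high-numbered, whereas 3 low Fos libraries were high-numbered (WT stress 6, WT control 5 and WT control 4) and 5 were low-numbered. With library class as a term in the fit, each fold change therefore compared the 8 high libraries with those 3 low libraries, all of WT mice, while the 5 others informed only the spread and the class difference.

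Many activity-linked genes, though not all of those listed here, are immediate early genes. These are transcribed within minutes of strong synaptic input or growth factor signals, without new protein synthesis. Calcium entering through NMDA receptors and L-type channels acts through kinases on CREB and serum response factor, which bind the promoters of these genes. The early products include the AP-1 proteins (dimers of Fos and Jun family members), other transcription factors, proteins that act at synapses, and phosphatases and kinases that shut the signal off. In the hippocampus their transcripts are widely read as marks of recently active neurons, although glia and vascular cells can induce many of them too. In bulk RNA, more active cells and more transcript per active cell cannot be told apart.

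The promoters of 5 genes are printed because they show what the searched motifs look like in genes that differed strongly between the sides (Dusp1, Cyr61, Btg2) beside the ranking gene Fos and beside Homer1, whose total level hardly differed. Each is the RefSeq window in the GRCm38.p6 build from 250 bases before to 50 bases after the annotated start, read on the gene's strand. Capitals mark the cAMP response element (TGACGTCA) and its core site (TGACG, or CGTCA where it lies on the other strand), which lies within the full element.
Fos promoter, chr12:85473640-85473939, plus strand: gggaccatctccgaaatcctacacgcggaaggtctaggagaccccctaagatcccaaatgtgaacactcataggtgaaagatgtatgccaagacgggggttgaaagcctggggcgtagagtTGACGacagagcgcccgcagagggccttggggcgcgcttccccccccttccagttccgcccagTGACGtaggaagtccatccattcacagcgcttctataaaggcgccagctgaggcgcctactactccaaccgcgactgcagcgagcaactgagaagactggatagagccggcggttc
Dusp1 promoter, chr17:26508423-26508722, minus strand: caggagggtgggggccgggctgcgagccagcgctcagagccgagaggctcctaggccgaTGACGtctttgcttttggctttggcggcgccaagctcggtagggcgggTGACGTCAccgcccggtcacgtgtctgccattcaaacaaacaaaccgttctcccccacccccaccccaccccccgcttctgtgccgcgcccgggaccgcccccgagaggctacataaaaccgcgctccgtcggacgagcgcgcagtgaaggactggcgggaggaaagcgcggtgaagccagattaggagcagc
Cyr61 promoter (listed as Ccn1), chr3:145649936-145650235, minus strand: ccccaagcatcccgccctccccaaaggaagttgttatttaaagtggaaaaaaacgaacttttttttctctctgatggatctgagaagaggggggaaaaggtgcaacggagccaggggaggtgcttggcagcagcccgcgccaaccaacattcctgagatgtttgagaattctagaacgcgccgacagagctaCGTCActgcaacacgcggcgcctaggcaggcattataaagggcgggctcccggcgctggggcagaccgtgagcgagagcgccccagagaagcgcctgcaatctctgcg
Btg2 promoter, chr1:134079106-134079405, minus strand: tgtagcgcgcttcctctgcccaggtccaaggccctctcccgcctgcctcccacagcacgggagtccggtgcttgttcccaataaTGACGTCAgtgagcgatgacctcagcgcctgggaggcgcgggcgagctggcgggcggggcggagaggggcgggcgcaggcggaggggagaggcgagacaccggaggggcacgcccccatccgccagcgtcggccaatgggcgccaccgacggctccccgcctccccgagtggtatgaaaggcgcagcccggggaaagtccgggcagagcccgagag
Homer1 promoter, chr13:93303507-93303806, plus strand: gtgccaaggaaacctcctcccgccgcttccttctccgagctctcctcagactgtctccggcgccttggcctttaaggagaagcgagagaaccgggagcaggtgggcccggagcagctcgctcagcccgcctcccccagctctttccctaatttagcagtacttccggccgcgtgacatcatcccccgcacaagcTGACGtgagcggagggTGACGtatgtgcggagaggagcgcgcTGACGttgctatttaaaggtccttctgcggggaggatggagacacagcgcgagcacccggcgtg

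The full element lay 143 bases upstream of the start of Dusp1 (position -143) and at position -166 of Btg2, and the Fos, Cyr61 and Homer1 windows held only core sites. Of Fos and the 83 listed activity-linked genes, 63 had a RefSeq window and 21 had none, Arc, Egr1, Egr3, Ier2, Sik1 and Trib1 among them. On either strand the full element was in 11.1% of the 90 windows of these genes, against 1.79% of all 32851 mouse windows. The core site was in 53.3% of the 90 windows, against 20.8% of all windows. The CArG box, to which serum response factor binds, was in 7.78%, against 1.63% of all windows, and the AP-1 site TGANTCA in 3.33%, against 7.81%. Some genes have several overlapping windows, so the 90 are not independent. The core site occurred in all 8 members with a window and a log2 fold change above 1, and in 32 of the 54 other members with a window. Homer1 had 3 of them and differed little, so a match is a description of the letters only.

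Fos stood at 35.9 CPM (lowest), 68.7 CPM (median) and 101 CPM (highest) on the high side, against 6.34, 16.8 and 17.8 CPM on the low side. Within the high side, 5 libraries lay at 67.6 CPM or above (WT stress 3 and 4, WT control 7, and KO control 5 and 6), and the other 3 lay between 35.9 and 38.7 CPM (WT control 6, KO stress 5 and KO stress 3). The last library inside the high side (KO stress 3, 35.9 CPM) was close to the first outside it (KO stress 4, 30.9 CPM). On the low side the edge was narrower still, with KO stress 2 at 17.8 CPM inside and WT control 2 at 20.5 CPM outside. These are the values the ranking used, and the class-adjusted log2 fold change of Fos, high minus low, was 2.35 ± 0.38 (standard error, SE, as for every fold change here).

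Other transcripts set some libraries apart. KO stress 3 and KO stress 5 carried 116 and 92.3 CPM of Tcf7l2, a transcription factor of thalamic neurons and of oligodendrocytes, against 5.57 to 16.7 CPM in the other 6 high libraries. Their summed level of 20 thalamus and habenula markers was 1454 and 1235 CPM, against 330 to 369 CPM in the 3 high-numbered low libraries. A library of the middle, WT stress 5, had a like sum of 1385 CPM. Prox1, which marks dentate granule cells, ran from 4.10 to 14.6 CPM over the 24 libraries, and Spink8, a CA1 marker, from 4.11 to 40.5 CPM, so hippocampal transcripts were present in each. Il1r1, the targeted gene, ran from 3.69 to 8.42 CPM in KO stress and 2.09 to 5.44 CPM in KO control libraries, against 3.36 to 7.34 CPM in WT stress and 1.96 to 5.67 CPM in WT control libraries, so its bulk level did not separate the genotypes.

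The 83 listed genes (9 AP-1 subunits, 23 other rapid transcription factors, 25 synaptic and secreted effectors, 26 feedback inhibitors and kinases) were all in the count table, and 81 passed the filter on low counts. Fosl1 and Batf did not pass. On the class-adjusted scale 61 of the 81 were above 0 and 20 below, with a median log2 fold change of 0.30, against 0.0097 over all 15564 genes tested besides Fos. A log2 fold change above 1 was found for 13 members, against 2.52% of all genes, and 31 members lay within 0.25 of 0. In 3 members, Ier2, Cyr61 and Dusp1, every high library exceeded every low library, against 0.109% of all genes, and without WT stress 6 this count was 5. With library sizes scaled by TMM factors it was 2, and Ier2 then overlapped. No share over all genes is given for either of these counts. Against the 3 high-numbered low libraries alone, 11 members were higher in every high library, against 4.74% of all genes. No member was lower in every high library than in every low library, a pattern that 1 gene (0.00643% of all) showed. Since Fos of the same libraries chose the sides and activity-linked genes are known to move with Fos, these shares describe how far the other genes followed it.

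**Figure D1:**
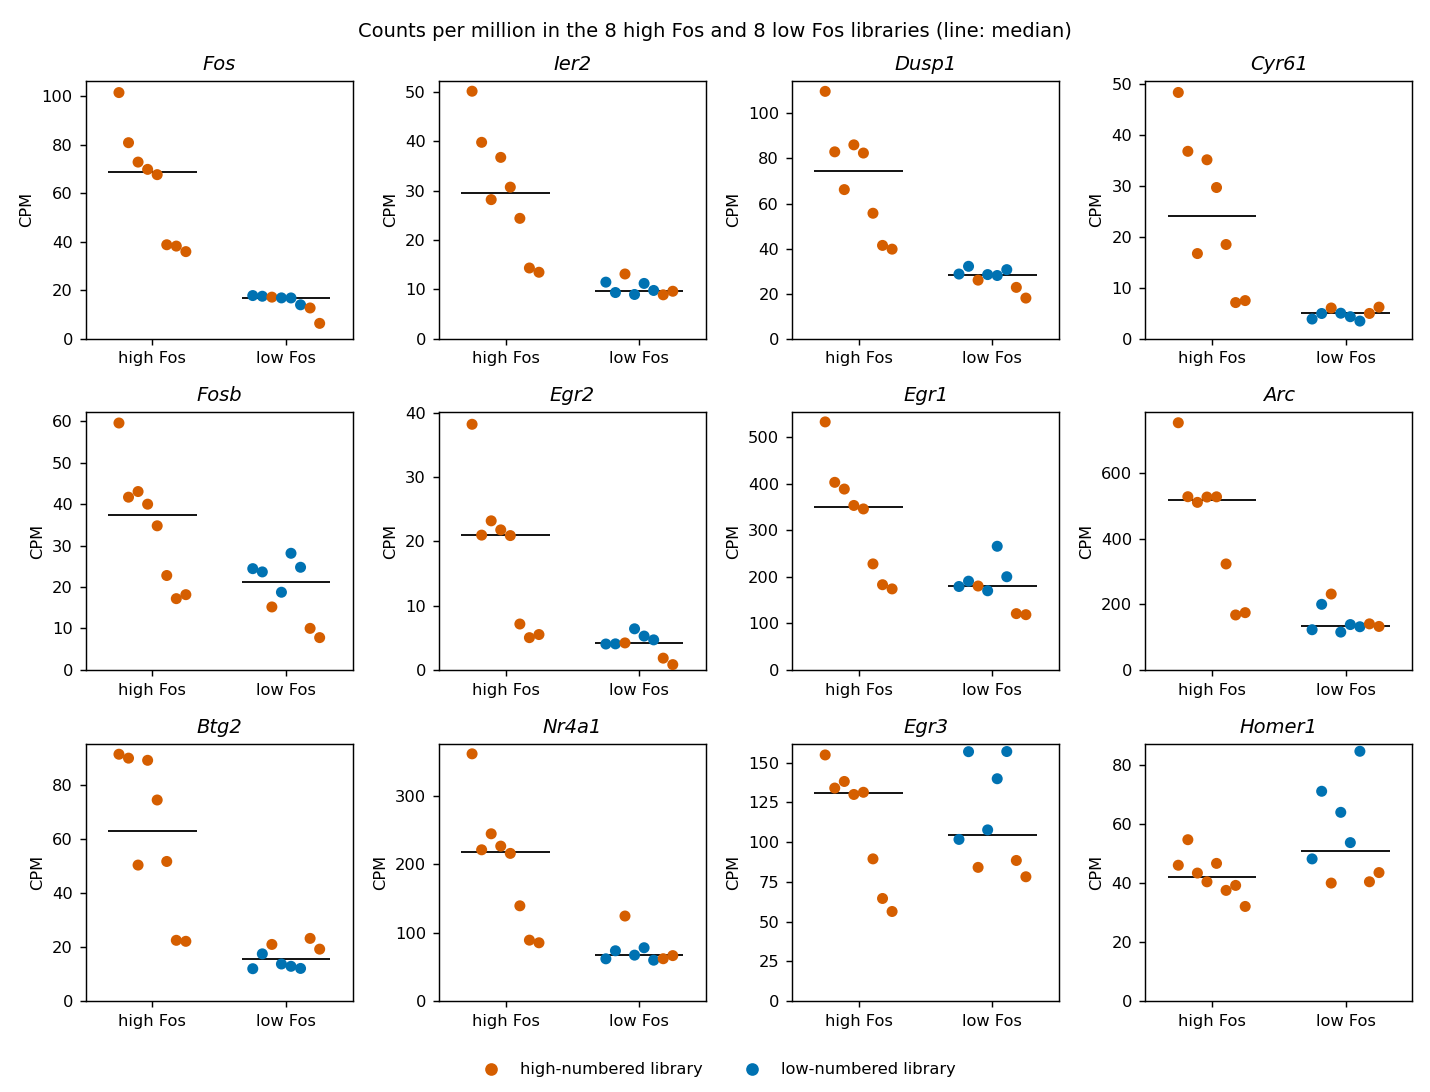
CPM of Fos and 11 activity-linked genes in each of the 8 high Fos (left) and 8 low Fos (right) libraries, ordered by falling Fos CPM within a side, with the median as a line and the library class by colour. Ier2 (on column-sum CPM), Dusp1 and Cyr61 separate the sides completely, whereas Egr3 and Homer1 overlap widely and reach their highest values in low-numbered low Fos libraries.

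Among the AP-1 subunits, Fosb followed Fos most closely. Fosb encodes a Fos relative whose stable splice form accumulates with repeated activity. It stood at 17.2, 37.4 and 59.5 CPM (lowest, median, highest) on the high side, against 7.81, 21.2 and 28.1 CPM on the low side, and its log2 fold change was 1.61 ± 0.37, or 0.84 without the class term. All 8 high libraries exceeded the 3 high-numbered low ones (15.2 CPM in WT stress 6, 10.03 CPM in WT control 5 and 7.81 CPM in WT control 4), while the low-numbered low libraries, at 18.7 to 28.1 CPM, overlapped with the high side. Junb, a Jun family partner of Fos, had 80.5, 208 and 319 CPM on the high side, against 42.4, 59.9 and 127 CPM on the low side (log2 fold change 0.91 ± 0.37). Its overlap came from KO stress 5 and KO stress 3, at 80.5 and 85.8 CPM on the high side, and from WT stress 6 at 127 CPM on the low side. Fosl2, a slower Fos relative, overlapped between 35.6 to 87.5 CPM on the high side and 27.0 to 49.2 CPM on the low side (0.47 ± 0.23).

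The remaining subunits differed less or the other way. Atf3, a stress-induced factor that dimerises with Jun proteins, was scarce, with 0.800 to 3.28 CPM on the high side, against 0.420 to 1.37 CPM on the low side (0.58 ± 0.38). Without WT stress 3, its highest library, this fold change was 0.35. Jun, the partner of Fos in the classical AP-1 dimer, had 101, 109 and 123 CPM on the high side, against 120, 131 and 131 CPM in the 3 high-numbered low libraries and 60.5 to 79.6 CPM in the 5 low-numbered ones. Jun thus differed by library class more than by Fos side, and its class-adjusted log2 fold change was -0.25 ± 0.09. Jund was at 0.08 ± 0.12 and Batf3 at -0.18 ± 0.31.

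Of the other rapid transcription factors, 20 of 23 were above 0, and 6 were above 1 on the log2 scale. Ier2, a small nuclear protein induced within minutes of a stimulus, stood at 13.5, 29.4 and 50.1 CPM on the high side, against 8.90, 9.70 and 13.1 CPM on the low side. On column-sum CPM the sides did not overlap, though the lowest high library (KO stress 3) exceeded the highest low library (WT stress 6) only narrowly, and the log2 fold change was 1.46 ± 0.36. Egr2, a zinc-finger factor of the Egr family, had the largest fold change of all members at 2.90 ± 0.69, with 5.03, 20.9 and 38.2 CPM on the high side, against 0.836, 4.14 and 6.41 CPM on the low side. Egr2 had 5 libraries at 20.9 CPM or more, the same 5 that led for Fos, while WT control 6, KO stress 3 and KO stress 5 lay at 5.03 to 7.15 CPM. Btg2, an antiproliferative cofactor of transcription and of mRNA decay, had 22.2, 63.2 and 91.5 CPM on the high side, against 12.1, 15.7 and 23.3 CPM on the low side (1.51 ± 0.44). Only KO stress 3 and KO stress 5 fell within the range of the low side.

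Egr1 (Zif268), a zinc-finger factor used as a mark of activity beside Fos and Arc, had 174, 349 and 533 CPM on the high side, against 119, 180 and 266 CPM on the low side (1.18 ± 0.33). The 5 libraries with the most Fos all had Egr1 above every low library, and the other 3, at 174 to 228 CPM, did not. Nr4a1 (Nur77), an orphan nuclear receptor, had 85.3, 218 and 361 CPM on the high side, against 59.9, 66.9 and 124 CPM on the low side (1.19 ± 0.41). Again KO stress 3 and KO stress 5 lay within the low side's range, whose top value of 124 CPM was that of WT stress 6. Npas4, a factor that neurons induce through calcium, had 19.6, 55.3 and 86.4 CPM on the high side, against 10.5, 12.7 and 28.2 CPM on the low side (1.16 ± 0.39).

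Other rapid factors differed less between the sides. Egr3, another Egr family member, had 56.4, 131 and 155 CPM on the high side, against 78.2, 105 and 157 CPM on the low side, and its log2 fold change was 0.39 ± 0.28. Its lowest high values, 56.4 and 64.6 CPM in KO stress 3 and KO stress 5, were under every low library. Within the high-numbered class, though, Egr3 had 130 to 155 CPM in the 4 libraries highest in Fos, against 60.9 to 88.5 CPM in the 4 lowest. The 60.9 CPM was that of WT stress 5, a library with thalamic transcripts. Egr4, also of the Egr family, was at 0.77 ± 0.37 and had 103 to 143 CPM in those 4 highest, against 29.9 to 68.1 CPM in the 4 lowest. The fold change was 0.69 ± 0.33 for Klf2, a Krüppel-like factor of endothelium and neurons. Crem (0.08 ± 0.13), Klf10 (-0.04 ± 0.18), Srf (-0.04 ± 0.11) and Myc (-0.19 ± 0.16) lay near 0 or below it. Egr3, Egr4, Klf2 and these 4 were chosen after their values were seen, as were Npas4, Jun, Jund and Batf3.

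The synaptic and secreted effectors split evenly: 12 of 25 were above 0 and 13 below, with a median log2 fold change of -0.0021. Arc, whose protein controls AMPA receptor uptake at active synapses, was among the 3 above 1. It had 167, 518 and 752 CPM on the high side, against 115, 135 and 231 CPM on the low side (1.35 ± 0.44). Arc lay at 510 to 752 CPM in the 5 libraries with the most Fos. At nearly equal Fos (35.9 to 38.7 CPM), Arc was 323 CPM in WT control 6. It was 174 CPM in KO stress 3 and 167 CPM in KO stress 5, the high libraries with thalamic transcripts. Both lay under the 231 CPM of the low library WT stress 6. WT control 6 also differed from both in genotype and stress, and the part of any of these in the Arc level was not tested. Cyr61 (Ccn1), a secreted matrix protein made by vascular cells and astrocytes as well as neurons, had 7.09, 24.1 and 48.3 CPM on the high side, against 3.46, 4.96 and 6.20 CPM on the low side. No low library reached the lowest high one, and the log2 fold change was 2.09 ± 0.55.

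The fold changes of Pcsk1 and Arl4d depended on the class term. Pcsk1, a protease that cleaves neuropeptide precursors, was at 1.10 ± 0.40, with 2.32, 4.87 and 10.1 CPM on the high side, against 2.39, 3.40 and 1.85 CPM in the 3 high-numbered low libraries (WT stress 6, WT control 5 and WT control 4) and 5.99 to 15.2 CPM in the 5 low-numbered ones. Its 2 highest values on the high side, 10.1 and 9.53 CPM, were those of KO stress 5 and KO stress 3, and without the class term its log2 fold change was -0.34. Arl4d, a small GTPase, had 24.3, 33.7 and 51.1 CPM on the high side, against 11.4, 28.6 and 40.7 CPM on the low side (0.88 ± 0.27, or 0.33 without the class term). For Arl4d, WT control 5 and WT control 4 at 11.4 and 15.7 CPM stood apart from all other libraries of either side: without WT control 5 the log2 fold change was 0.61, and without WT stress 6 it was 1.35.

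Several other effectors had smaller or negative fold changes between the sides. The values in this paragraph are those of genes chosen after they were seen. Homer1, a postsynaptic scaffold whose short Homer1a form is the activity-induced one, had 32.1, 41.9 and 54.7 CPM on the high side, against 40.0, 50.9 and 84.6 CPM on the low side (-0.0021 ± 0.16). The table counts the gene as a whole, so Homer1a was not measured apart. Bdnf, a neurotrophin, had 25.1 to 41.0 CPM on the high side, against 23.4 to 39.7 CPM on the low side (-0.25 ± 0.12). Nptx2 (Narp), a pentraxin that gathers AMPA receptors, had 33.6 to 69.7 CPM on the high side, against 36.8 to 45.4 CPM in the 3 high-numbered and 74.2 to 111 CPM in the 5 low-numbered low libraries (0.34 ± 0.19). Within the high-numbered class, Nptx2 had 60.1 to 69.7 CPM in the 4 libraries highest in Fos, against 36.8 to 45.4 CPM in the 4 lowest. Ptgs2, the inducible cyclooxygenase, was lowest of all members at -0.50 ± 0.16, with 7.23 to 12.8 CPM on the high side, against 12.7 to 15.3 CPM in the 3 high-numbered low libraries. Its 5 low-numbered low libraries had 5.13 to 8.16 CPM, so that overall the sides overlapped.

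Feedback inhibitors and kinases lay mostly on 1 side, with 24 of 26 above 0 and a median log2 fold change of 0.36. Dusp1, a phosphatase that inactivates MAP kinases, had 39.8, 74.3 and 110 CPM on the high side, against 18.1, 28.3 and 32.1 CPM on the low side (1.62 ± 0.29). No library of either side broke the order of the sides, and Dusp1 in the 8 middle libraries, at 29.7 to 38.6 CPM, lay under every high library. Sik1, a kinase that restrains CREB coactivators, had 16.8, 28.0 and 41.3 CPM on the high side, against 7.28, 16.7 and 18.8 CPM on the low side (1.24 ± 0.23). For Sik1, KO stress 5 was the second highest of all libraries at 33.9 CPM, unlike in Arc, Egr1 or Nr4a1, and only WT control 6 at 16.8 CPM lay within the low side's range.

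Trib1, a pseudokinase that targets proteins for degradation, had 15.8, 26.9 and 44.1 CPM on the high side, against 9.996, 20.2 and 26.5 CPM on the low side (1.10 ± 0.25, or 0.48 without the class term). All 8 high libraries exceeded the 3 high-numbered low ones, of which the highest, WT stress 6, had 15.5 CPM, and the low-numbered low libraries lay at 18.8 to 26.5 CPM. Gadd45a, a growth arrest and DNA repair protein, behaved likewise at lower levels (4.97 to 10.6 CPM on the high side, against 3.66 to 4.36 CPM in the 3 and 6.44 to 8.34 CPM in the 5), with a log2 fold change of 0.75 ± 0.20. Without the class term the value for Gadd45a was 0.16, and with a replicate block in its place 0.36. Rgs4 (0.72 ± 0.15), Plk3 (0.55 ± 0.12) and Midn (0.40 ± 0.13) also exceeded the 3 high-numbered low libraries in all 8 high ones. Among low-numbered libraries Rgs4 ran the other way, with 196 to 224 CPM in the 4 highest in Fos, against 268 to 404 CPM in the 4 lowest. Plk2 (-0.16 ± 0.16) and Dusp2 (-0.05 ± 0.31) were the members of this list below 0. These last 5 genes were chosen after their values were seen.

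**Figure D2:**
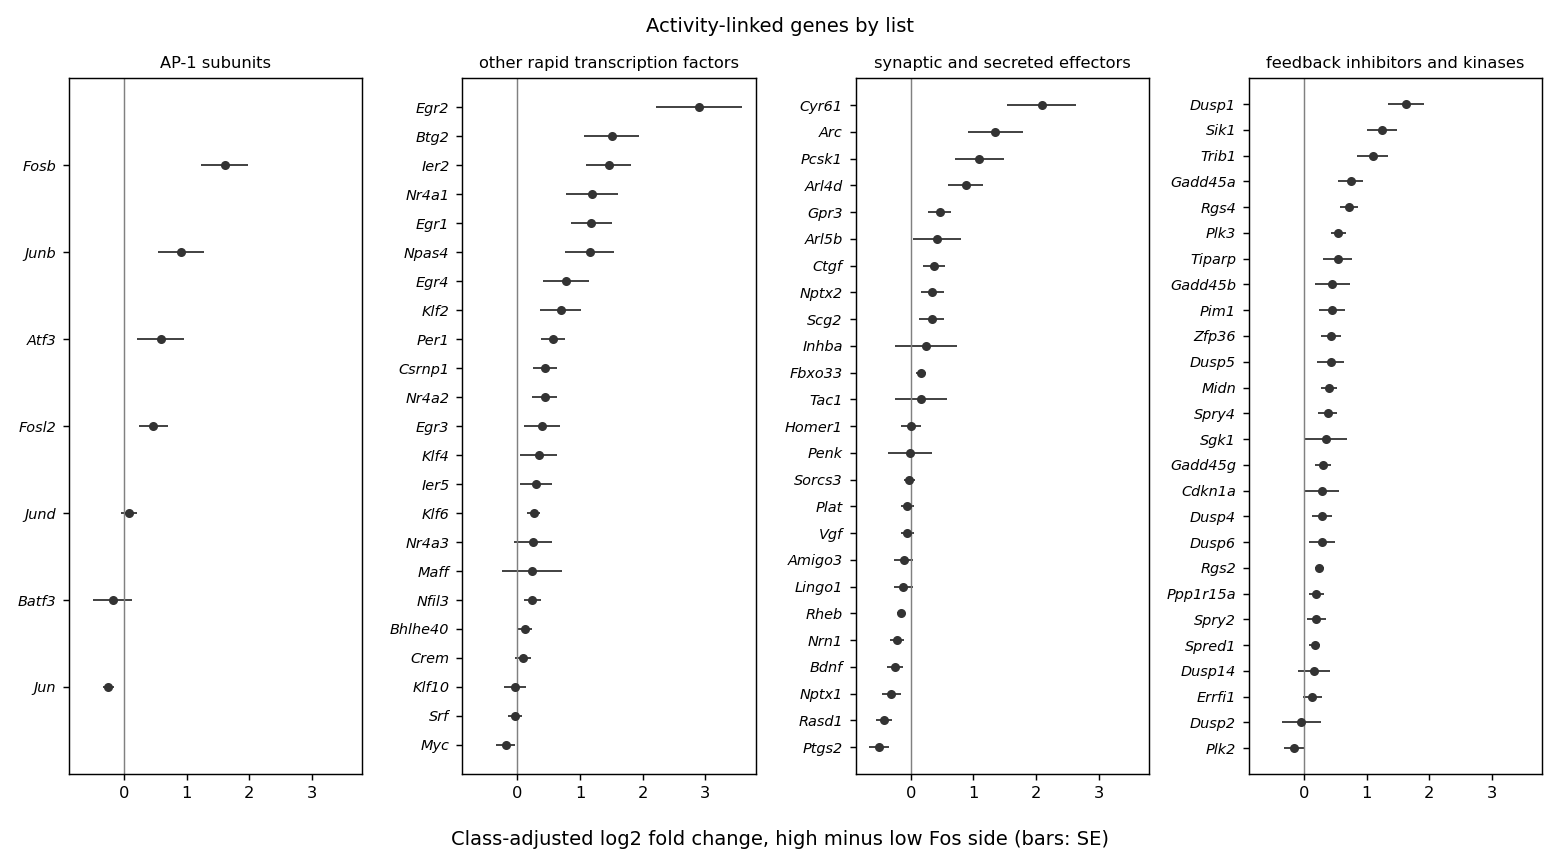
Class-adjusted log2 fold change, high minus low Fos side, of the 81 tested activity-linked genes in 4 lists, with SE as bars. AP-1 subunits, rapid transcription factors and feedback genes lie mostly above 0 (Egr2 2.90, Dusp1 1.62), while the effectors centre on 0 apart from Cyr61, Arc, Pcsk1 and Arl4d.

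Which libraries carried the difference was counted over the 13 members with a log2 fold change above 1, a list chosen from these values. WT stress 3 and 4, WT control 7 and KO control 6 each exceeded every low library in 12 of the 13, and KO control 5 in 11. WT control 6 did so in 8, and KO stress 5 and KO stress 3 in 4 each. A library outside both sides, KO stress 4, did so in 9, more than 3 of the high libraries although its Fos was lower than theirs. Of the other middle libraries, WT control 3 did so in 6 and KO control 1 in 5, more than KO stress 5 and KO stress 3. The remaining middle libraries did so in 1 to 4. The order by Fos alone and the order by the other members thus differed at the lower edge of the high side and below it.

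Without KO stress 3 and KO stress 5, the number of members whose sides did not overlap was 14, against 0.437% of all genes. These 14 were Junb, Egr2, Egr4, Npas4, Nr4a1, Nr4a2, Ier2, Btg2, Arc, Cyr61, Dusp1, Spry2, Gadd45b and Ppp1r15a. Within the 13 high-numbered libraries, the 4 highest exceeded the 4 lowest in Fos in every library for 31 members, against 3.71% of all genes. Those 4 lowest were the 3 high-numbered low libraries and WT stress 5, which carried thalamic transcripts. Its thalamus and habenula markers summed to 1385 CPM, against 368 to 406 CPM in the 4 highest, and their part in this count was not tested. Within the 11 low-numbered libraries, the same comparison gave 11 members, against 10.5% of all genes, a share near the background. In that class 3 members (Scg2, Sorcs3 and Rgs4) were lower in all 4 highest than in all 4 lowest, against 11.2% of all genes. In both classes 7 members were higher in the 4 highest, against 0.424% of all genes. Markers of other regions also differed within the low-numbered class: choroid plexus markers summed to 246 to 664 CPM in the 4 highest, against 1895 to 2669 CPM in the 4 lowest, striatum markers to 450 to 489 CPM in the 4 highest, against 587 to 1827 CPM in the 4 lowest, and thalamus and habenula markers to 677 to 795 CPM in the 4 highest, against 945 to 1027 CPM in the 4 lowest. Lists of hippocampal cell types separated there too. Dentate granule markers summed to 471 to 484 CPM in the 4 highest, against 487 to 584 CPM in the 4 lowest. GABAergic interneuron markers were higher, at 2240 to 2409 CPM in the 4 highest, against 2117 to 2227 CPM in the 4 lowest. The part of all these lists in the member values was not tested. Fos itself spanned less there, at 23.6 to 26.6 CPM in the 4 highest, against 14.0 to 17.5 CPM in the 4 lowest. Nr4a1 had 85.3 to 101 CPM in those 4 highest low-numbered libraries, against 59.9 to 78.1 CPM in the 4 lowest, and Junb had 75.6 to 84.2 CPM in the 4 highest, against 42.4 to 58.6 CPM in the 4 lowest. Ier2 had 13.5 to 15.1 CPM in the 4 highest, against 8.97 to 11.2 CPM in the 4 lowest, while Arc and Egr1 overlapped within that class. In a fit of these 4 against 4 low-numbered libraries, the log2 fold change was -0.10 for Sik1, -0.27 for Pcsk1, -0.0027 for Trib1 and -0.01 for Atf3, the opposite sign of that between the sides.

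**Figure D3:**
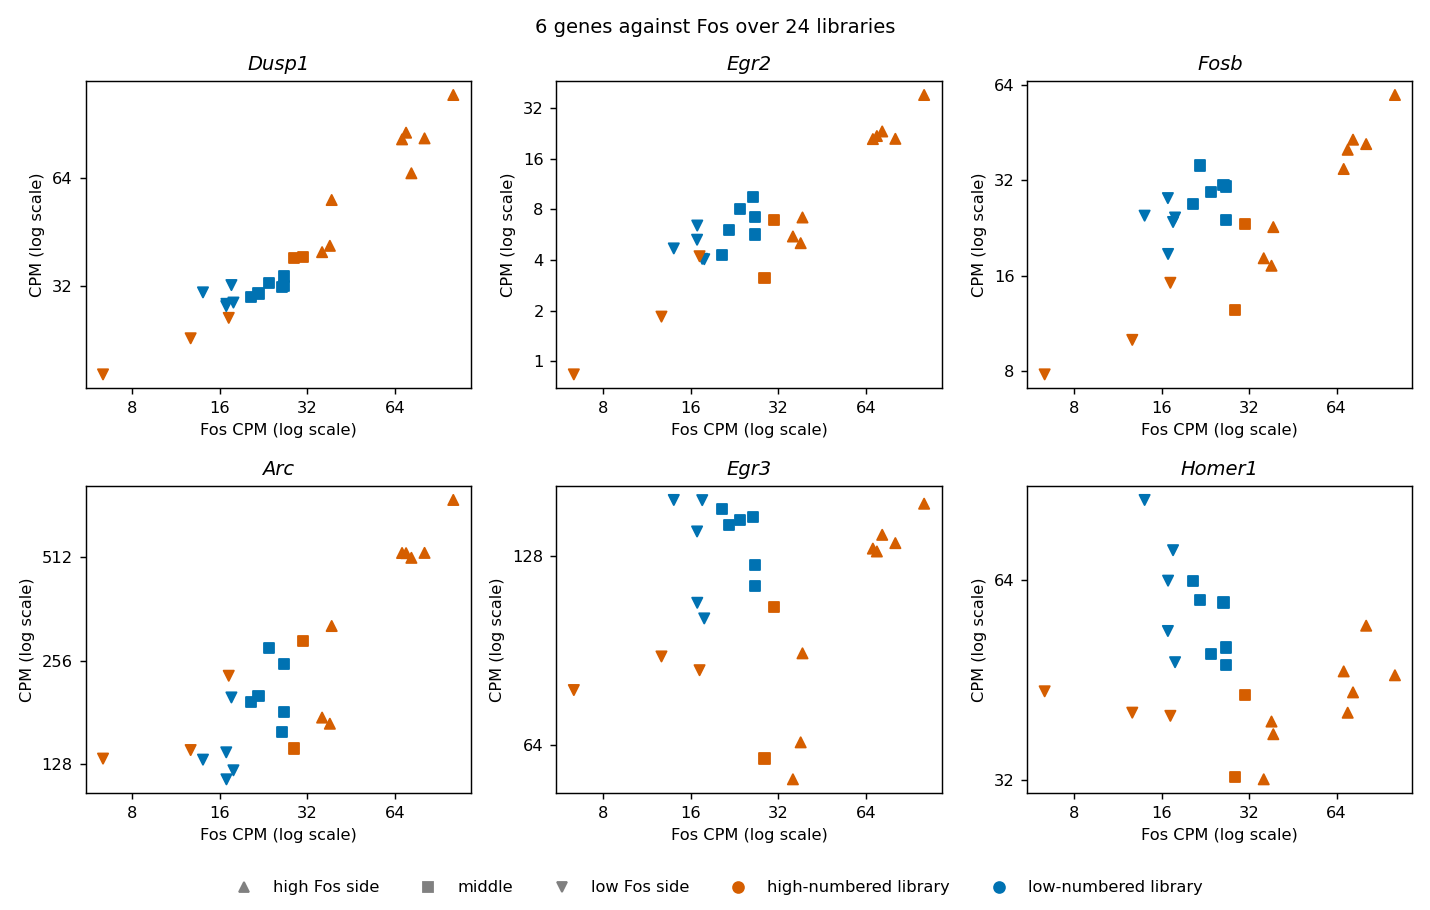
CPM of 6 genes against Fos CPM in all 24 libraries, both axes logarithmic, with the side by symbol and the library class by colour. Dusp1 separates the sides, Egr2 and Fosb separate the high side from the 3 high-numbered low libraries, Arc is highest in the libraries with the most Fos, Egr3 is high in libraries of both classes, and Homer1 is highest in low-numbered libraries.

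The 10 genes most like Fos were ranked by the Pearson correlation of log2 CPM over the 24 libraries, centred within library class, among 14283 genes. They were Dusp1 (0.954), Egr2 (0.942), Fosb (0.920), Garnl3 (0.910), Ier2 (0.901), Trib1 (0.891), Egr1 (0.862), Nr4a1 (0.858), Sowahb (0.851) and Doc2a (0.847). Within the 13 high-numbered libraries alone, the coefficients of these 10 genes ran from 0.857 (Nr4a1) to 0.972 (Dusp1). Within the 11 low-numbered libraries they ran from 0.095 (Trib1) to 0.882 (Nr4a1), with 0.340 for Garnl3, 0.441 for Egr1 and 0.648 for Dusp1. The 24 values share the ranking, the library depth and, in 5 high libraries, a cluster of high Fos, so the coefficients describe likeness and carry no p. Of the 10, 7 were listed members. Garnl3, a GTPase-activating protein domain gene, had 50.5 to 74.4 CPM on the high side, against 33.7 to 78.4 CPM on the low side (0.54 ± 0.13). Sowahb had 6.45 to 15.1 CPM on the high side, against 3.70 to 16.7 CPM on the low side (1.205 ± 0.24). Doc2a, a calcium sensor of synaptic vesicles, had 38.4 to 51.6 CPM on the high side, against 32.2 to 61.1 CPM on the low side (0.35 ± 0.12). In these 3 the sides overlapped, with the highest values of the low side in low-numbered libraries, and without the class term their log2 fold changes were -0.02, -0.03 and -0.08.

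Besides Ier2, Cyr61 and Dusp1, 14 genes outside the lists were higher in every high than in every low library. The 5 with the largest fold changes were Gem (0.66 ± 0.24), Myoc (0.51 ± 0.12), Ephb4 (0.49 ± 0.15), Igfbp5 (0.38 ± 0.09) and Lasp1 (0.26 ± 0.07). Gem, a GTPase that inhibits calcium channels, had 2.27, 2.55 and 4.73 CPM on the high side, against 1.39, 1.72 and 2.17 CPM on the low side. Myoc, a secreted glycoprotein, had 32.9 to 44.0 CPM on the high side, against 18.7 to 28.0 CPM on the low side. Igfbp5, a binding protein of insulin-like growth factors, had 193 to 220 CPM on the high side, against 120 to 181 CPM on the low side. Within the low-numbered class, 4 against 4, Igfbp5 was at -0.31 and Lasp1, an actin-binding protein, at -0.06. Pdgfrb, the receptor that marks pericytes, was also among the 14, at 27.0 to 32.6 CPM on the high side, against 19.7 to 26.7 CPM on the low side (0.26 ± 0.10). The 1 gene lower in every high library was Zdhhc14, a palmitoyltransferase, at 48.2 to 54.8 CPM on the high side, against 55.9 to 63.1 CPM on the low side (-0.29 ± 0.07).

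The 38 genes of the upstream pathway (glutamate receptors, calcium channels, calmodulin kinases, MAP kinases, CREB, its coactivators and serum response factor) did not go with Fos as a list. Their median log2 fold change was -0.04, with 14 above 0 and 24 below. None was above 1, against 2.52% of all genes. No sides separated, against 0.109% of all genes higher and 0.00643% lower in every high library. For 38 genes these counts lie near the shares over all genes and say nothing about the list. Lower in all 8 high libraries than in the 3 high-numbered low ones were 9 of them, against 3.04% of all genes, among them Camk2a (-0.33 ± 0.20), Ppp3ca (-0.44 ± 0.14), Elk1 (-0.33 ± 0.12) and Crtc1 (-0.27 ± 0.14). Creb1 itself had 27.6, 30.9 and 35.8 CPM on the high side, against 27.5, 30.7 and 40.3 CPM on the low side (0.08 ± 0.10), with full overlap. Camk2a, Ppp3ca, Elk1, Crtc1 and Creb1 were chosen after their values were seen.

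Neocortex, CA1 and CA3 pyramidal and red blood cell sums separated the high side from the 3 high-numbered low libraries. The sums of the other marker lists did not. The summed level of the 17 measured neocortex markers, several of which hippocampal neurons also express, was 1036 to 1341 CPM on the high side, against 934 to 977 CPM in the 3 high-numbered low libraries, so every high library exceeded those 3. Of the 17, 5 were higher in all 8 than in the 3 (Rorb, Cux2, Rasgrf2, Stard8 and Whrn), against 4.74% of all genes. Lower in all 8 was 1, Lmo3, against 3.04% of all genes. Over the 13 high-numbered libraries the log2 sum correlated with log2 Fos CPM at 0.90. The sum of 17 CA1 and CA3 pyramidal markers was 1297 to 1563 CPM on the high side, against 1646 to 1745 CPM in those 3. It correlated with Fos at -0.74 over the same 13 libraries. Of these markers, 4 were lower in all 8 (Spink8, Fibcd1, Man1a and Cpne4), against 3.04% of all genes. The 8 red blood cell genes summed to 324 to 398 CPM on the high side, against 438 to 478 CPM in the 3 high-numbered low libraries. In the 5 low-numbered low libraries the order was turned round, with 1346 to 1685 CPM for neocortex and 953 to 1185 CPM for CA1 and CA3, so over all 8 low libraries the sums overlapped with the high side. No list had its defining markers at 0 in all libraries, except 1 of the 8 red blood cell genes. The part of region content in the fold changes above was not tested.

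Other lists overlapped between the sides. Choroid plexus markers summed to 251 to 3358 CPM on the high side, against 200 to 2669 CPM on the low side, with a median log2 fold change of 0.67. Hypothalamus markers, with a median of 1.31, summed to 738 CPM in KO stress 3, 427 CPM in KO stress 5 and 183 to 208 CPM in the other high libraries, against 189 to 671 CPM on the low side. Pericyte and smooth muscle markers summed to 220 to 332 CPM on the high side, against 204 to 261 CPM on the low side, and endothelial markers to 489 to 856 CPM on the high side, against 474 to 683 CPM on the low side. Oligodendrocyte markers summed to 5241 to 13374 CPM on the high side, against 4192 to 9939 CPM on the low side, and were highest in KO stress 3. Heat shock and chaperone genes summed to 3433 to 4119 CPM on the high side, against 3697 to 4610 CPM on the low side. The 22 glucocorticoid-responsive genes summed to 1308 to 1805 CPM on the high side, against 1255 to 2186 CPM on the low side. Median log2 fold changes were 0.26 for the pericyte and smooth muscle list, 0.64 for oligodendrocyte, -0.09 for heat shock and 0.04 for glucocorticoid-responsive genes. Thalamus and habenula markers had a median of 1.33, with the level carried by KO stress 3 and KO stress 5.

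**Figure D4:**
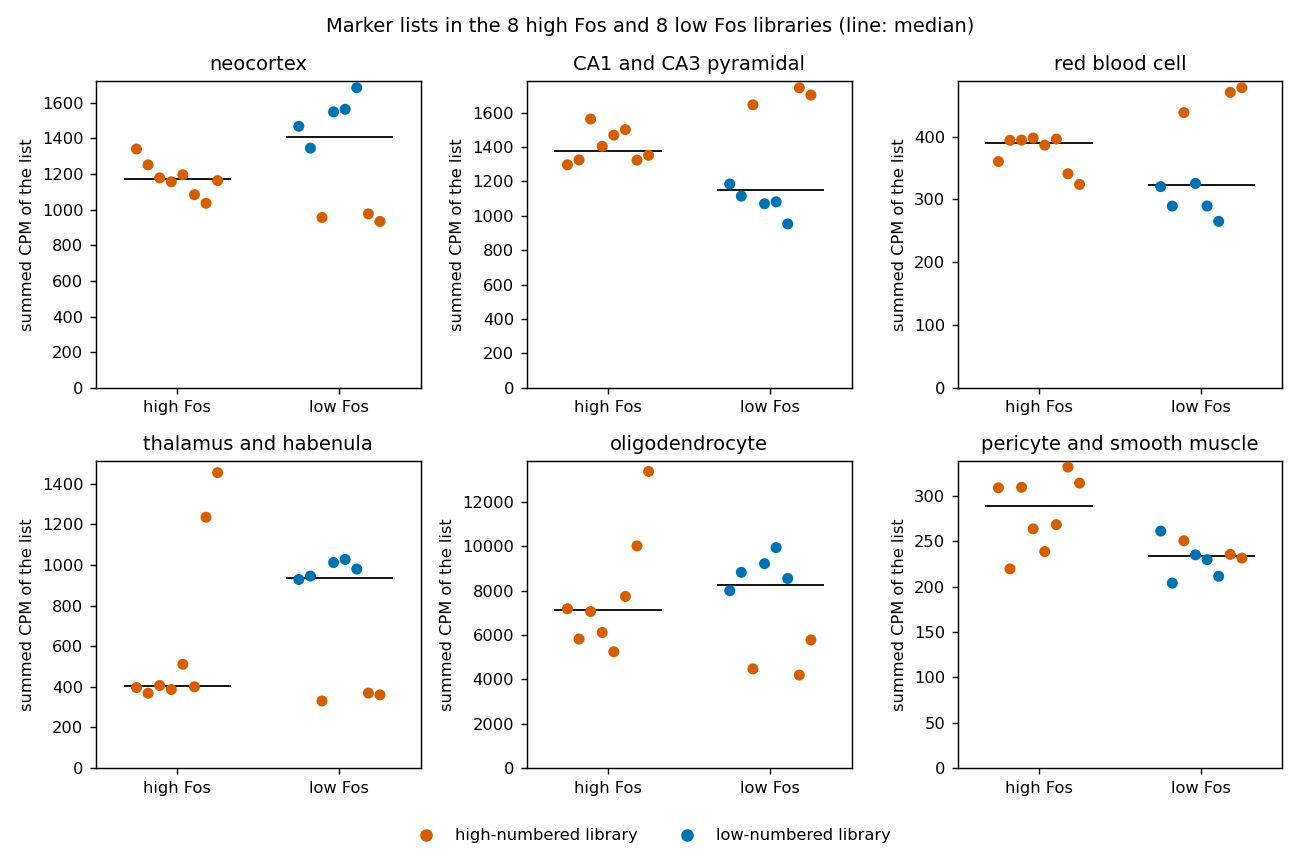
Summed CPM of 6 marker lists in the 8 high Fos (left) and 8 low Fos (right) libraries, with the median as a line and the library class by colour. Neocortex sums of the high side lie above, and CA1 and CA3 and red blood cell sums below, those of the 3 high-numbered low libraries. For neocortex, and for CA1 and CA3, the 5 low-numbered low libraries lie beyond the high side, while red blood cell sums overlap.

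The 8 middle libraries, which the ranking left out of both sides, gave the same genes a test on other samples. Fos ran only from 20.5 to 30.9 CPM there. In a fit of log2 Fos CPM with library class as a term, no member of 80 tested had an adjusted p under 0.05 (quasi-likelihood test of edgeR, Benjamini-Hochberg over 14512 genes, of which 0.0% passed). At an unadjusted p under 0.05 there were 3 members and 1039 genes in all, and DESeq2 called 0 members and 0.145% of genes (21). Fos itself, set against its own level, had a slope of 1.01 ± 0.30 and an adjusted p of 0.672 in edgeR, so these 8 libraries, with 5 residual degrees of freedom, could not call even that gene. Of the members, 46 of 80 had slopes above 0. The slope was 1.23 ± 0.50 for Ier2 (adjusted p 0.672 in edgeR), 0.34 ± 0.29 for Dusp1, 0.89 ± 0.79 for Egr1 and 0.34 ± 1.08 for Arc.

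The labelled comparisons did not use the ranking, and they asked whether stress changed the activity-linked genes and whether the knockout altered that change. In WT mice, 0 of 82 members tested passed an adjusted p of 0.05 in edgeR, against 0.135% of 16313 genes, and 5 members had an unadjusted p under 0.05, as did 720 genes. In KO mice it was 0 of 82, against 0.00613% of genes, with 9 members and 648 genes at an unadjusted p under 0.05. The interaction (the stress effect in KO minus that in WT mice) gave 0 of 82, against 0.0% of genes, with 8 members and 384 genes at an unadjusted p under 0.05. The median log2 fold change of the members was 0.10 in WT stress against WT control, with 59 of 82 above 0, and -0.13 in KO stress against KO control, with 22 of 82 above 0. With DESeq2 1 member passed in WT mice and 0 in KO mice and for the interaction, against 59, 7 and 0 genes in all. With limma voom 0 members passed in each, against 17, 0 and 0 genes in all. These fits held no class term, though the library classes were spread unevenly over the groups. With that term in edgeR, 26 genes passed in WT mice, 0 in KO mice and 0 for the interaction. At an unadjusted p under 0.05 there were then 974, 1067 and 538 genes. The 3 comparisons share libraries, and a p that misses the threshold does not show that stress left these genes alone.

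Fos, the ranking gene, had 17.2, 27.7 and 101 CPM (lowest, median, highest) in WT stress libraries, against 6.34, 20.5 and 80.8 CPM in WT control libraries. The groups overlapped almost entirely, and the log2 fold change was 0.64 ± 0.53. In KO stress libraries Fos was 38.2, 35.9, 30.9, 17.8 and 16.8 CPM, against 14.0, 24.2 and 69.8 CPM (lowest, median, highest) in KO control libraries (-0.43 ± 0.58). Arc was at 0.34 ± 0.44 under stress in WT mice and -0.81 ± 0.49 in KO mice, and Egr1 at 0.41 ± 0.29 in WT mice and -0.51 ± 0.32 in KO mice. For Fos, Arc and Egr1 the adjusted p was 1 in WT mice, 0.988 in KO mice and 1 for the interaction, all in edgeR. The 4 groups each gave 2 libraries to the high side, and the spread of Fos within a group was larger than the difference between groups.

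The members with the smallest p under stress in WT mice were Klf2, Klf4, Per1 and Tiparp. Klf2 had 17.5, 30.7 and 58.3 CPM in WT stress libraries, against 11.1, 16.5 and 22.9 CPM in WT control libraries, with a log2 fold change of 0.90 ± 0.23 and an adjusted p of 0.179 in edgeR. DESeq2 called this gene, with an adjusted p of 0.0206, and over 30 alternatives its adjusted p ran from 0.0206 to 0.606, the highest without WT stress 3. Klf4, a related factor, was at 0.59 ± 0.21, Per1, a clock gene that glucocorticoids and CREB induce, at 0.37 ± 0.14, and Tiparp, an ADP-ribosyltransferase, at 0.47 ± 0.19. In KO mice the smallest p were those of Crem (-0.36 ± 0.11), Egr3 (-0.69 ± 0.24), Ier5 (-0.56 ± 0.21) and Klf10 (-0.32 ± 0.14), each with an adjusted p of 0.988 in edgeR. Egr3 had 56.4, 102 and 108 CPM (lowest, median, highest) in KO stress libraries, against 124, 136 and 157 CPM in KO control libraries, and did not overlap. The 2 lowest KO stress values of Egr3 were those of KO stress 3 and KO stress 5, and the part of their thalamic transcripts in this difference was not tested. For the interaction the smallest p were those of Crem (-0.41 ± 0.15), Klf2 (-0.94 ± 0.34), Gadd45b (-0.79 ± 0.30) and Klf10 (-0.45 ± 0.19), each with an adjusted p of 1 in edgeR.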

How the data were processed

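The authors deposited raw counts, 1 whole number for each gene and library. STAR and DESeq2, with the mouse build mm10, are named in the submitters' processing notes. How reads were counted, and whether by strand, is not given in the sources used here. The authors' normalized table and their table of 1 comparison were not used. The table held 24062 genes in 24 libraries of 25711872 to 35148198 counts, and a gene with 3 reads stood at 0.0854 to 0.117 CPM, a floor that covers counting error only. Of the counts from 1 to 10, 70.9% to 75.8% were even in each library, so both mates of a pair may have been counted.

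CPM was computed over column sums and ranked by Fos. Fits used edgeR 4.0.16 in R 4.3.3 (TMM factors, robust quasi-likelihood, filterByExpr with a minimum count of 10). The high against low fit took 16 libraries with the library class as a term (15565 genes, 13 residual degrees of freedom, biological coefficient of variation 0.179). The middle fit took 8 libraries with the same term (14512 genes, 5 degrees of freedom, 0.144). The labelled comparisons took 4 group means over 24 libraries, without the class term (16313 genes, 20 degrees of freedom, 0.219). SE is the absolute log2 fold change over the square root of F. Tests were checked on simulated data. Alternatives used DESeq2 1.42.0 and limma 3.58.1, and figures matplotlib 3.10.9. Promoter windows came from RefSeq (GRCm38.p6).

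The Fos ranking, the members and all lists were chosen with earlier results of these data known. Named were Fos, Arc and Egr1. From each list came the members whose sides did not overlap or, if fewer than 4, those of the largest absolute fold change up to 4. Of all genes with at least 1 CPM and no overlap, the 8 largest fold changes and the 1 negative fold change were named. The rest of the 8 smallest were planned but are not named here. Also named were the 10 most like Fos (log2 CPM with a pseudocount of 0.5). In labelled comparisons, up to 4 members of the smallest p were named. Other named genes were chosen after their values were seen.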

Additional observations from a re-analysis of the deposited data

Results flagged for a closer look

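In 66 groups of libraries (each named gene on each side, and the marker genes in each labelled group of 4 to 10), 7 single libraries stood apart from the rest of their group by the gap rule of Dixon. Fos cut the sides and many genes were named for their values, so no chance rate applies and the flags only describe. On the low Fos side, WT control 4 had 6.34 CPM of Fos, under the 12.7 CPM of the next library. On the same side WT stress 6 had 127 CPM of Junb and 124 CPM of Nr4a1, each above all other low libraries. On the high Fos side, WT stress 3, the library with the most Fos, had 3.28 CPM of Atf3 and 44.1 CPM of Trib1. Among labelled groups, Egr1 was 272 CPM in KO stress 4, above the other KO stress libraries, and 403 CPM in WT control 7, above the other WT control libraries.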

How the results depend on the processing

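The median log2 fold change of the 81 members, 0.30 with the class term, was 0.10 without it and 0.0558 in low-numbered libraries only (4 against 4, added after seeing the data). With a replicate block (replicate number in place of the class) it was 0.23. Same-numbered stress and control libraries deviated together in only some pairs (correlations -0.28 to 0.49, 1 of 11 best with its own number). The numbers were therefore not treated as pairs in the main fits. Such correlations cannot show whether same-numbered samples were collected or prepared together. The block called no member in the labelled comparisons, against 24, 1 and 0 genes in all (WT mice, KO mice and the interaction). The count of members whose sides did not overlap was 3 of 81, against 0.109% of all genes. It was 15 with 6 against 6 libraries, 0 with 12 against 12, 2 with TMM-scaled CPM and 3 to 5 with a library left out. No share over all genes is given for those settings. In high-numbered libraries only it was 31 (3.71% of all genes). In low-numbered libraries only it was 11, or 13.6% of members, near the 10.5% of all genes. Without KO stress 3 and KO stress 5 it was 14 (0.437% of all genes). The TMM-scaled CPM and these last 3 settings were added after seeing the data. Smaller sides separate more easily, so the counts cannot be compared across settings without those shares. DESeq2 called 1 member under stress in WT mice, Klf2, where edgeR called 0, and DESeq2 called 59 genes in all, against 22 in edgeR.

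Of 810 values of 27 named genes under the alternatives, 739 moved by less than 1 SD between libraries of a side and class, 61 by more, and 10 changed sign. In low-numbered libraries only, Atf3 was -0.010, Pcsk1 -0.27, Sik1 -0.10, Trib1 -0.0027, Igfbp5 -0.31 and Lasp1 -0.056. Without the class term, Pcsk1 was -0.34, Garnl3 -0.023, Sowahb -0.033 and Doc2a -0.0839. The cause was not tested. Depth limits Atf3, Egr2 in WT control 4 and other genes near 1 CPM.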
